A study of Mus musculus with 14 samples.

Results

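The genes described here carry glucose from the cell surface to pyruvate, exchange pyruvate with lactate, and admit pyruvate to the mitochondrion. They were chosen by symbol from a list of 32: 2 glucose transporters, 18 genes of glycolysis, 4 of lactate, 7 of pyruvate entry and the regulator Hif1a. All 32 were found among the 55486 genes of the count table, in 33 rows, since Aldoa has a second, weakly counted row. All 32 were tested in both comparisons below.

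The study counted polyadenylated RNA by sequencing in 14 libraries of mouse CD8 T cells, activated with antibodies against CD3 and CD28 and grown for 8 days. It asked what loss or inhibition of DOT1L, the enzyme that methylates histone H3 at lysine 79, does to the transcriptome. The KO group (3 libraries) was heterozygous for CreERT2, a Cre recombinase that tamoxifen activates, and homozygous for the floxed Dot1l allele. Its WT control (3 libraries) was heterozygous for CreERT2 with wild-type Dot1l. Cells of either group were given 4-hydroxytamoxifen at 10 nM on day 0. The EPZ group (4 libraries) received the DOT1L inhibitor EPZ-5676 every 2 days, and its DMSO control (4 libraries) received 0.1% DMSO. Both came from mice with neither Cre nor the floxed allele, and the library names give the same 4 animals for both. The treatment label gives the dose of EPZ-5676 as 10 mM and the library name as 10 uM, and nothing in the data decides between these. All 14 libraries were heterozygous for the OT-I T cell receptor transgene. Neither the age of the animals nor the promoter of CreERT2 is stated.

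Resting T cells take up little glucose. Once activated they raise its uptake and turn much of it into lactate even where oxygen is present, which is known as aerobic glycolysis. GLUT1 and GLUT3 (Slc2a1, Slc2a3) bring glucose in, hexokinases trap it, and phosphofructokinase commits it to breakdown. Lactate dehydrogenase is a tetramer of A and B subunits. The A form favours making lactate and the B form favours its oxidation back to pyruvate. MCT1 and MCT4 (Slc16a1, Slc16a3) carry lactate across the membrane. The carrier formed by Mpc1 and Mpc2 admits pyruvate to the mitochondrion, where pyruvate dehydrogenase acts on it and the kinases Pdk1, Pdk2 and Pdk3 switch that enzyme off. HIF-1 alpha (Hif1a) and MYC are transcription factors that drive many of these genes.

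Promoter windows of 4 members are printed because these genes carry the results below. Ldhb had the largest change in both comparisons and Ldha encodes the other subunit of its enzyme. Pdk1 was lower in both, and Hk2 moved in opposite directions. Each is the 250 bases before the transcript start in RefSeq (GRCm38.p6, the mm10 assembly), 5′ to 3′ on the strand of the gene. They lie at chr6:142507958-142508207 (minus strand) for Ldhb and at chr7:46845554-46845803 (plus) for the upstream one of the windows of Ldha. That of Pdk1 is at chr2:71872974-71873223 (plus), again the upstream one, and that of Hk2 at chr6:82774455-82774704 (minus). Capitals mark ACGTG or GCGTG, the core of the element that HIF-1 binds, or its reverse complement, with the whole of CACGTG in capitals where that E-box holds the core.
Ldhb: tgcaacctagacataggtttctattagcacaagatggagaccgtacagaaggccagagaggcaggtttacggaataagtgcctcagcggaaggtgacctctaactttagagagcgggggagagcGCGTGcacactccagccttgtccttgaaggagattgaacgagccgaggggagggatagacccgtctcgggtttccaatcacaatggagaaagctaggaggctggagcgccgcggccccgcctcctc
Ldha: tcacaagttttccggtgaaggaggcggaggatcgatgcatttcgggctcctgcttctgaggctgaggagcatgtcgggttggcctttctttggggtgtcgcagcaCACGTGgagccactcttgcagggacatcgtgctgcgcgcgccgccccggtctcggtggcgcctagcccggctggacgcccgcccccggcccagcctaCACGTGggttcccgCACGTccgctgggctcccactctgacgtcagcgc
Pdk1: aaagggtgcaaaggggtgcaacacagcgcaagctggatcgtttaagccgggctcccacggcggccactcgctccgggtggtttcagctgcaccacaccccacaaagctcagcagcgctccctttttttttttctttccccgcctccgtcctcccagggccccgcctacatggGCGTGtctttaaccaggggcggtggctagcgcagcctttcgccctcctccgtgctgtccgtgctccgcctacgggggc
Hk2: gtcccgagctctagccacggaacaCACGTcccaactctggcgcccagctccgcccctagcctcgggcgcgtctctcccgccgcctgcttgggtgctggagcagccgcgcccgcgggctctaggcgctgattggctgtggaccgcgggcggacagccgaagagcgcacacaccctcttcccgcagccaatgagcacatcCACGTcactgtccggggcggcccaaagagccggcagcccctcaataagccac
A window was found for 31 of the 32 members (Slc2a3 had none), 46 windows in all. ACGTG or GCGTG stood on either strand in 36 of the 46 (78.3%), against 38.6% of all 32851 mouse windows. Some windows of Aldoa, Eno1 and Pfkm overlap within the gene, so a site can count more than once. Counted by gene, 28 of the 31 members (90.3%) had a match, against 41.5% of 27025 genes. CACGTG, which contains ACGTG and is its own reverse complement, stood in 13.0% of the member windows and 6.02% of all. The windows of members were also richer in G and C, with a median of 61.6% against 52.4%. Ldha had 5 matches of ACGTG over the 2 strands, 4 of them in its 2 CACGTG sites. Hk2 had 2 of ACGTG, while Ldhb and Pdk1 had 1 of GCGTG each. The window of Tpi1 held none of these letters. A match describes the letters and shows no binding.

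Library totals ran from 5643724 to 20586093 counts. Dot1l was at 203 ± 14.4 CPM (counts scaled to a common library size with TMM factors) in KO and 136 ± 3.75 CPM in WT (SD, n = 3 each), so the libraries labelled KO held more, not fewer, Dot1l counts. A count over the whole gene does not show whether an exon is missing. In 4 of the 6 KO and WT libraries (KO 2, KO 3, WT 2, WT 3) the labelled sex differed from the one that Xist and Ddx3y show, and in none of the 8 EPZ and DMSO libraries. Results of the libraries labelled KO are therefore also given for KO 1 and WT 1 alone. The 7 CD8 T cell markers, Cd8a among them, were present in all libraries. Their summed level was 1812 to 1862 CPM in KO against 3152 to 3422 in WT, and 2517 to 2748 in EPZ against 3547 to 3905 in DMSO. Cd8a alone was at 89.2 to 134 CPM in KO against 681 to 729 in WT. In EPZ it was at 370 to 417, against 804 to 858 in DMSO. Of these 7 markers, edgeR called 5 lower in KO and 4 lower in EPZ, and 0 higher in either. Cd3e went the other way in KO, at 563 to 592 CPM against 461 to 557 in WT. Cd3g overlapped there, at 415 to 474 CPM against 407 to 494. The 7 myeloid and dendritic markers summed to 44.5 to 60.3 CPM in KO and 16.8 to 20.7 in WT, and to 14.8 to 17.0 in EPZ and 8.43 to 13.9 in DMSO. Of the 4 of these that could be tested, 3 were higher in KO and 2 in EPZ (edgeR). Itgax was at 26.3 to 36.7 CPM in KO against 6.96 to 9.48 in WT, and at 4.73 to 6.07 in EPZ against 3.52 to 6.74 in DMSO. H2-Ab1 was at 8.74 to 10.3 CPM in KO against 2.78 to 3.91 in WT, and at 4.27 to 6.18 in EPZ against 0.737 to 2.20 in DMSO. Itgam was at 2.83 to 5.93 CPM in KO against 0.242 to 1.46 in WT, and at 0.976 to 1.76 in EPZ against 0.344 to 0.819 in DMSO. Cd68 overlapped in both comparisons, at 5.70 to 7.16 CPM in KO against 4.58 to 8.10 in WT. In EPZ it was at 3.52 to 4.47 CPM, against 3.36 to 5.76 in DMSO. Lyz2, Csf1r and Adgre1 were at most 0.224 CPM in any library. The 7 B cell markers summed to 121 to 141 CPM in KO and 483 to 593 in WT, and to 423 to 553 in EPZ and 1039 to 1293 in DMSO. Nearly all of this was Ighm, with Ms4a1 at 0 in all 14. The part of these marker differences in the results below was not tested. In bulk RNA, fewer cells of a type and less RNA per cell cannot be told apart.

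The 32 genes together took 8483 to 8849 CPM in KO and 7851 to 8447 CPM in WT. In EPZ they took 7994 to 9129 CPM and in DMSO 6364 to 7521 CPM, so neither pair of groups overlapped. Per kilobase of exon, which allows genes to be set against each other, Ldha and Aldoa took the top places in every group. Ldha averaged 329 CPM per kb in KO, 296 in WT, 312 in EPZ and 239.5 in DMSO. Aldoa averaged 308 CPM per kb in KO, 254 in WT, 315 in EPZ and 252 in DMSO. Pkm, Eno1, Pgk1, Gapdh, Gpi1 and Tpi1 followed, all at 57.4 CPM per kb or more in every group. At the other end, Pfkfb4 averaged 0.452 to 1.17 CPM per kb. On this scale the main isoforms were Slc2a1 over Slc2a3, Pfkp among phosphofructokinases, Aldoa, Eno1, Ldha and Slc16a1. These led their families in all 4 groups. The lead of Slc2a1 depended on the length scaling, with exon lengths of 3506 bases for Slc2a1 and 7245 for Slc2a3. In unscaled CPM, Slc2a3 stood above Slc2a1 in every DMSO library, at 111 to 120 CPM against 80.0 to 103.

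**Figure D1:**
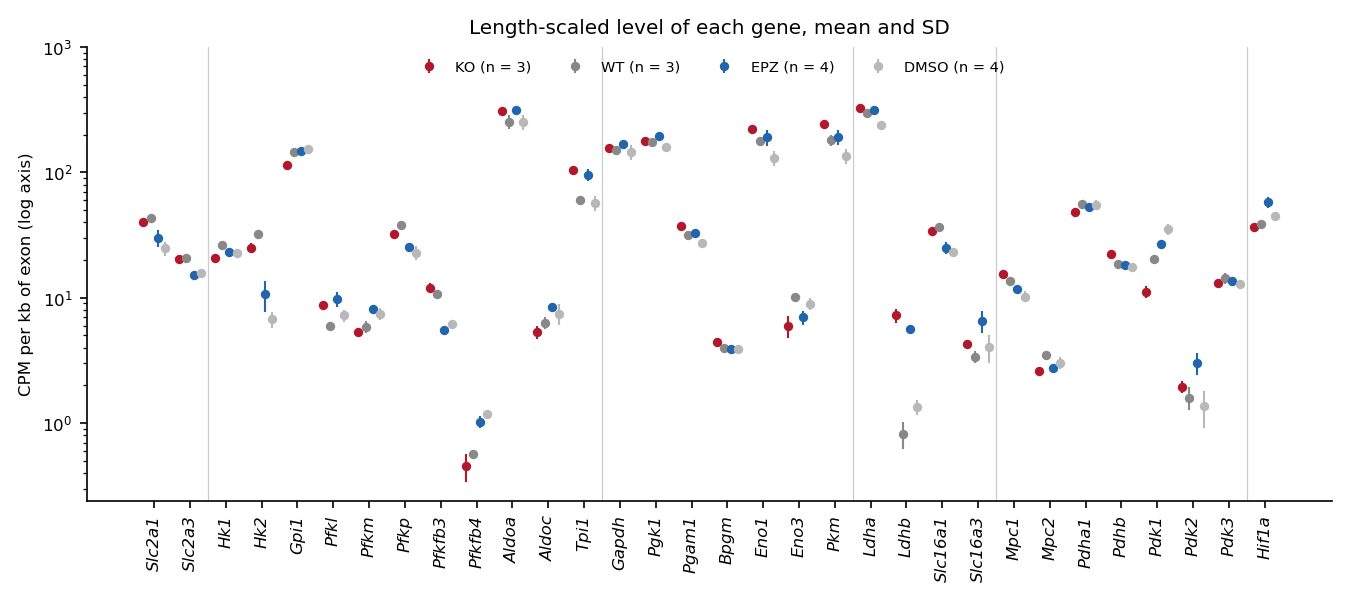
Level of each of the 32 genes per kilobase of exon, in CPM on a log axis, as mean (point) and SD (bar) for KO and WT (n = 3 each) and EPZ and DMSO (n = 4 each); grey lines separate glucose uptake, upper glycolysis, lower glycolysis, lactate, pyruvate entry and Hif1a. Ldha and Aldoa are at the top in every group, and Ldhb lies near 1 CPM per kb in WT and DMSO but at 7.22 in KO and 5.58 in EPZ.

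In KO cells 10 of the 32 genes were higher and 8 lower than in WT (edgeR quasi-likelihood test, Benjamini-Hochberg adjusted p below 0.05 over all genes). Over all 11570 genes tested, 40.4% were called (20.3% higher, 20.2% lower), and the members' 18 of 32 is read against that high background. The median log2 fold change of the members was 0.0064, against -0.0064 for all genes. In EPZ cells 13 were higher and 2 lower than in DMSO, with 20.2% of 12208 genes called (11.9% higher, 8.31% lower). Here the members' median was 0.19 and that of all genes -0.0075. Of the members, 12 were called in both comparisons, which is 12 of the 18 called in KO and 12 of the 15 called in EPZ. Over all genes, 1713 (15.1% of those tested in both) were called in both, with 4678 called in KO and 2463 in EPZ. Higher in both were 9 (Pfkl, Aldoa, Tpi1, Pgam1, Eno1, Pkm, Ldha, Ldhb and Slc16a3), against 8.64% of the 11364 genes tested in both. Lower in both were 2 (Eno3 and Pdk1), against 6.19%. Hk2 alone was called in opposite directions, as were 0.246% of all genes. A further 6 were called in KO only, 3 in EPZ only (Pgk1, Pdk2 and Hif1a), and 11 in neither. All libraries of KO lay to one side of all WT libraries for 22 members (12 higher, 10 lower), against 51.2% of all genes (24.4% higher, 26.8% lower). Between EPZ and DMSO this held for 15 members (13 higher, 2 lower), against 24.2% of all genes (13.5% higher, 10.7% lower).

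**Figure D2:**
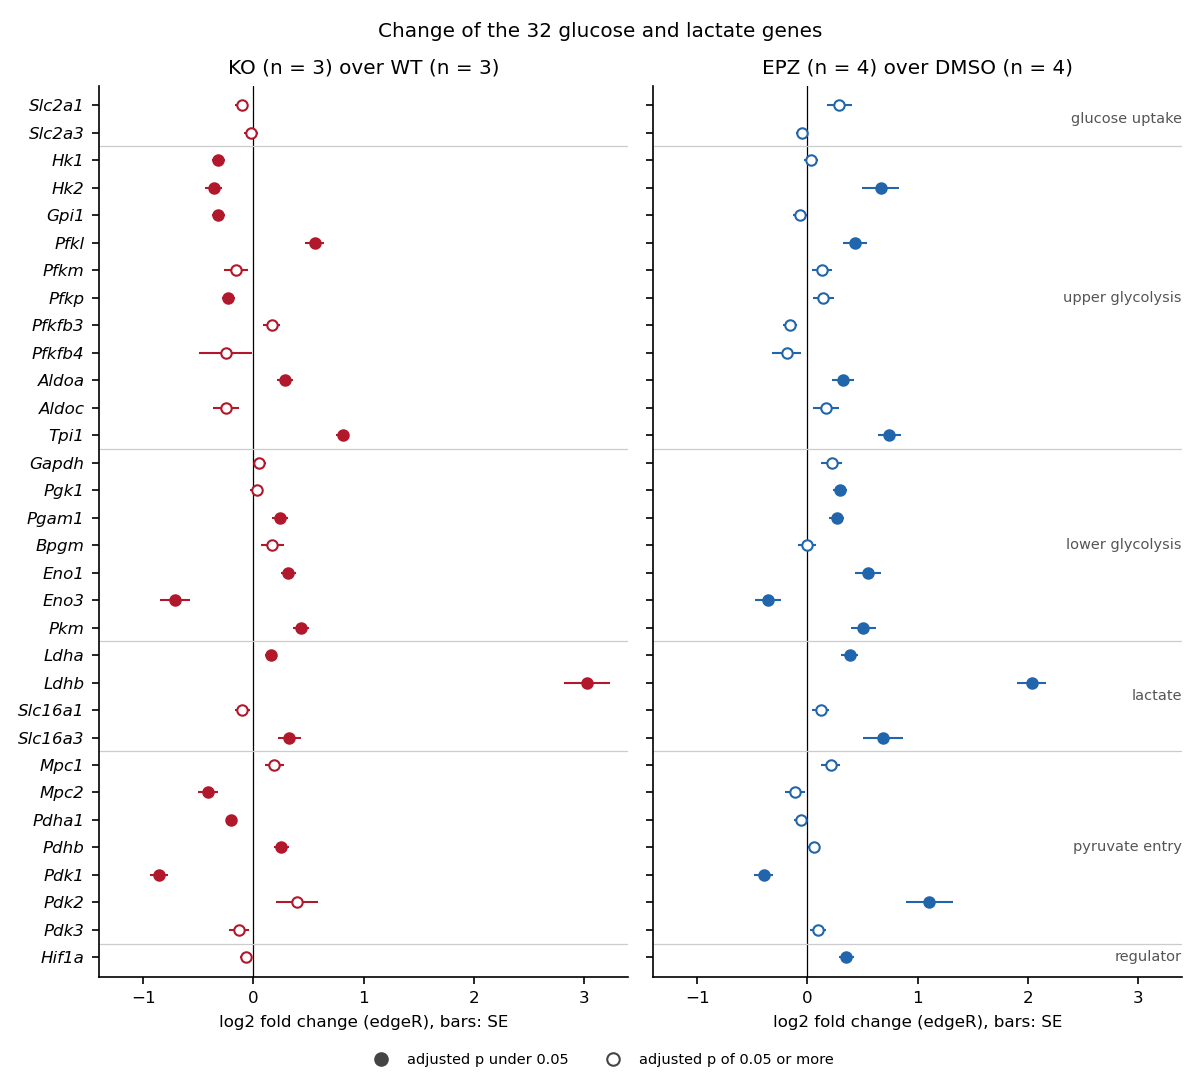
Log2 fold change (point) and its SE (bar) of each of the 32 genes, ordered by step, in KO over WT on the left (n = 3 each) and EPZ over DMSO on the right (n = 4 each); filled points have an edgeR adjusted p below 0.05. Ldhb stands far to the right in both panels, at 3.03 in KO and 2.04 in EPZ, while Hk2 lies on opposite sides of 0.

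At the step of uptake, neither transporter was called in either comparison. Slc2a1 was at 131 to 148 CPM in KO and 145 to 157 CPM in WT. In EPZ it read 93.3, 97.0, 103 and 130.1 CPM, against 82.0, 81.5, 80.0 and 103 CPM in DMSO, so 1 DMSO library reached into the EPZ range. This was DMSO 4, from the same animal as EPZ 4, and within each animal EPZ stood above DMSO. The log2 fold change in EPZ was 0.29 ± 0.11 (SE, edgeR adjusted p = 0.0926). With the animal as a block in edgeR it was called (adjusted p = 0.00634). Slc2a3 differed little, with log2 fold changes of -0.02 in KO and -0.05 in EPZ.

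Of the 11 genes of upper glycolysis, 3 were called higher (Pfkl, Aldoa, Tpi1) and 4 lower (Hk1, Hk2, Gpi1, Pfkp) in KO, where 20.3% of all genes were higher and 20.2% lower. In EPZ 4 of 11 were called higher (Hk2, Pfkl, Aldoa, Tpi1), against 11.9% of all genes. Hk2, the inducible hexokinase, read 166, 139.7 and 143 CPM in KO, against 209, 190.1 and 181 CPM in WT. In EPZ it read 55.4, 54.6, 54.6 and 89.0 CPM, against 34.7, 35.9, 41.8 and 48.1 CPM in DMSO. All KO libraries lay below all WT libraries, and all EPZ libraries above all DMSO libraries, with EPZ 4 far above the other 3. The log2 fold change was -0.36 ± 0.08 in KO (edgeR adjusted p = 0.0027) and 0.66 ± 0.17 in EPZ (edgeR adjusted p = 0.0164). The EPZ call was lost without DMSO 2 (adjusted p = 0.0526), and the KO call when all 14 libraries shared a fit (0.0838). Hk2 also stood higher in WT than in DMSO, whose cultures differ in Cre genotype, tamoxifen and solvent. These cannot be told apart, and the 2 controls were not tested against each other.

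Hk1, the hexokinase of most tissues, read 185, 177 and 174 CPM in KO, against 214, 221 and 235 CPM in WT, without overlap. Its log2 fold change there was -0.32 ± 0.06 (edgeR adjusted p = 0.000805). In EPZ it read 190.2, 189, 204 and 214 CPM, against 199, 199, 180.3 and 204 CPM in DMSO, and the groups overlapped (log2 fold change 0.03, edgeR adjusted p = 0.769). Gpi1, which turns glucose 6-phosphate into fructose 6-phosphate, was at 739 to 750.0 CPM in KO and 906 to 958 CPM in WT (log2 fold change -0.32). In EPZ it was not called.

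Pfkl, the liver form of phosphofructokinase, read 57.3, 63.3 and 53.8 CPM in KO, against 40.4, 36.3 and 42.2 CPM in WT. The EPZ libraries read 70.2, 60.3, 54.9 and 75.6 CPM, against 54.0, 42.4, 44.9 and 51.6 CPM in DMSO. Every library of the perturbed groups was above those of its control. The log2 fold changes were 0.56 ± 0.08 in KO (edgeR adjusted p = 0.000153) and 0.43 ± 0.11 in EPZ (0.0185). The EPZ call was lost without EPZ 1 (adjusted p = 0.0535), EPZ 4 (0.0553) or DMSO 2 (0.0665). Pfkp, the platelet form and the most abundant of the 3, was lower in KO (log2 fold change -0.23) and not called in EPZ (0.14). Its KO call was lost without KO 2 (edgeR adjusted p = 0.0553) and when all 14 libraries shared a fit (0.0558). Pfkm was called in neither. The fructose 2,6-bisphosphate enzymes Pfkfb3 and Pfkfb4, which set an activator of phosphofructokinase, were not called either, with log2 fold changes between -0.25 and 0.17.

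Tpi1, which interconverts the pair of triose phosphates, had the largest rise of upper glycolysis. It read 279, 306 and 281 CPM in KO, against 167, 160.2 and 169 CPM in WT. The EPZ libraries read 284, 253, 228 and 292 CPM, against 177, 139.9, 139 and 177 CPM in DMSO. Both pairs of groups were well apart. The log2 fold changes were 0.81 ± 0.06 in KO (edgeR adjusted p = 2.88e-07) and 0.74 ± 0.10 in EPZ (edgeR adjusted p = 0.000711), or 1.76-fold in KO and 1.67-fold in EPZ. Aldoa, the main aldolase, read 872, 919 and 900.1 CPM in KO, against 706, 673 and 841 CPM in WT. Its EPZ values were 954, 834, 869.8 and 1006 CPM, against 809, 656, 636 and 833 CPM in DMSO, so the lowest EPZ library stood just above the highest DMSO library. Its log2 fold changes were 0.29 ± 0.08 in KO and 0.32 ± 0.10 in EPZ, and the EPZ call (edgeR adjusted p = 0.0417) was lost without EPZ 1, EPZ 3, EPZ 4, DMSO 2 or DMSO 3 (adjusted p up to 0.137). When all 14 libraries shared a fit, its KO call was lost (0.0576). Aldoc was called in neither.

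Of the 7 genes of lower glycolysis, 3 were called higher and 1 lower in KO (all genes: 20.3% higher, 20.2% lower), and 4 were called higher and 1 lower in EPZ (all genes: 11.9% higher, 8.31% lower). Pgam1, phosphoglycerate mutase, read 75.4, 76.7 and 70.1 CPM in KO, against 65.7, 57.1 and 65.4 CPM in WT. Its EPZ values were 68.2, 61.5, 60.8 and 68.7 CPM, against 55.9, 52.8, 51.7 and 55.4 CPM in DMSO. The groups did not overlap in either comparison, and the log2 fold changes were 0.24 ± 0.08 in KO (edgeR adjusted p = 0.0201) and 0.26 ± 0.07 in EPZ (0.0167). The KO call was lost without KO 1 (adjusted p = 0.0762), KO 2 (0.0849) or WT 2 (0.059), and the EPZ call without EPZ 1 (0.0555), EPZ 4 (0.0513) or DMSO 2 (0.0618). Gapdh, Bpgm and, in KO, Pgk1 were not called. Pgk1, which makes the first ATP of the pathway, was higher in EPZ, at 421 to 453 CPM against 329 to 377 CPM in DMSO (log2 fold change 0.29). Gapdh in EPZ was called only with the animal as a block (adjusted p = 0.117 without it and 0.0211 with it).

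Eno1, the main enolase, read 1205, 1244 and 1126 CPM in KO, against 909, 926 and 1049 CPM in WT. Its EPZ values were 1046, 912, 916 and 1239 CPM, against 762, 628, 615 and 810.5 CPM in DMSO, again apart. The muscle enolase Eno3 went the other way. It read 10.4, 12.5 and 8.39 CPM in KO, against 18.7, 16.8 and 17.5 CPM in WT. The EPZ libraries read 14.2, 11.4, 12.5 and 10.6 CPM, against 17.0, 17.2, 14.7 and 13.6 CPM in DMSO, and these ranges overlapped. Eno1 had log2 fold changes of 0.32 ± 0.07 in KO and 0.55 ± 0.12 in EPZ, and its KO call was lost when all 14 libraries shared a fit (edgeR adjusted p = 0.0548). Eno3 fell by 0.71 ± 0.14 on the log2 scale in KO (edgeR adjusted p = 0.00122) and by 0.36 ± 0.11 in EPZ (edgeR adjusted p = 0.047), and the EPZ call was lost in 8 of 15 alternatives, among them the fits without EPZ 2, EPZ 3, EPZ 4, DMSO 1, DMSO 2 or DMSO 3. Pkm, pyruvate kinase, read 1182, 1264 and 1204 CPM in KO, against 870.4, 835 and 1013 CPM in WT. Its EPZ values were 981, 886, 837 and 1123 CPM, against 742, 606, 582 and 770.3 CPM in DMSO. The perturbed libraries were above their controls throughout, with log2 fold changes of 0.43 ± 0.07 in KO (edgeR adjusted p = 0.000378) and 0.51 ± 0.11 in EPZ (0.00973). A gene count does not separate the M1 and M2 forms of Pkm, which differ by 1 exon.

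The lactate genes held the largest change of the pathway. Ldhb, the subunit that favours lactate oxidation, read 11.4, 9.86 and 12.8 CPM in KO, against 0.967, 1.28 and 1.60 CPM in WT. Its EPZ values were 8.30, 8.91, 9.15 and 8.70 CPM, against 2.25, 2.37, 1.71 and 2.06 CPM in DMSO. No perturbed library came near its controls, and the counts behind the WT values were 8, 7 and 31. The log2 fold changes were 3.03 ± 0.21 in KO (edgeR adjusted p = 2.22e-07) and 2.04 ± 0.13 in EPZ (edgeR adjusted p = 9.9e-06), or 8.16-fold in KO and 4.10-fold in EPZ. Ldhb was called under every alternative fit of either comparison that gave it a value.

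Ldha, the abundant subunit, was higher in both. It read 1075, 1119.9 and 1069.9 CPM in KO, against 1000.1, 942 and 996 CPM in WT. The EPZ libraries read 1031, 1036, 926 and 1135 CPM, against 828, 782, 715 and 846 CPM in DMSO. Both pairs of groups were apart, with log2 fold changes of 0.16 ± 0.06 in KO (edgeR adjusted p = 0.0403) and 0.38 ± 0.08 in EPZ (0.00633). The KO call was lost in 8 of 14 alternatives, among them the fits without KO 1, KO 2, KO 3, WT 2 or WT 3. The EPZ call was kept in all 15. Slc16a3, the exporter MCT4, read 21.5, 24.7 and 21.7 CPM in KO, against 18.1, 15.9 and 19.8 CPM in WT. In EPZ it read 39.1, 28.6, 28.8 and 42.2 CPM, against 24.9, 15.2, 18.6 and 26.6 CPM in DMSO. The groups did not overlap, and the log2 fold changes were 0.33 ± 0.11 in KO (edgeR adjusted p = 0.0244) and 0.69 ± 0.18 in EPZ (0.0204). The KO call was lost without KO 2, WT 1 or WT 2 (adjusted p up to 0.141), in DESeq2 (0.0596) and when all 14 libraries shared a fit (0.235). The EPZ call was lost without EPZ 1, EPZ 4, DMSO 2 or DMSO 3 (adjusted p up to 0.0613). Slc16a1, which encodes MCT1, was not called in either.

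**Figure D3:**
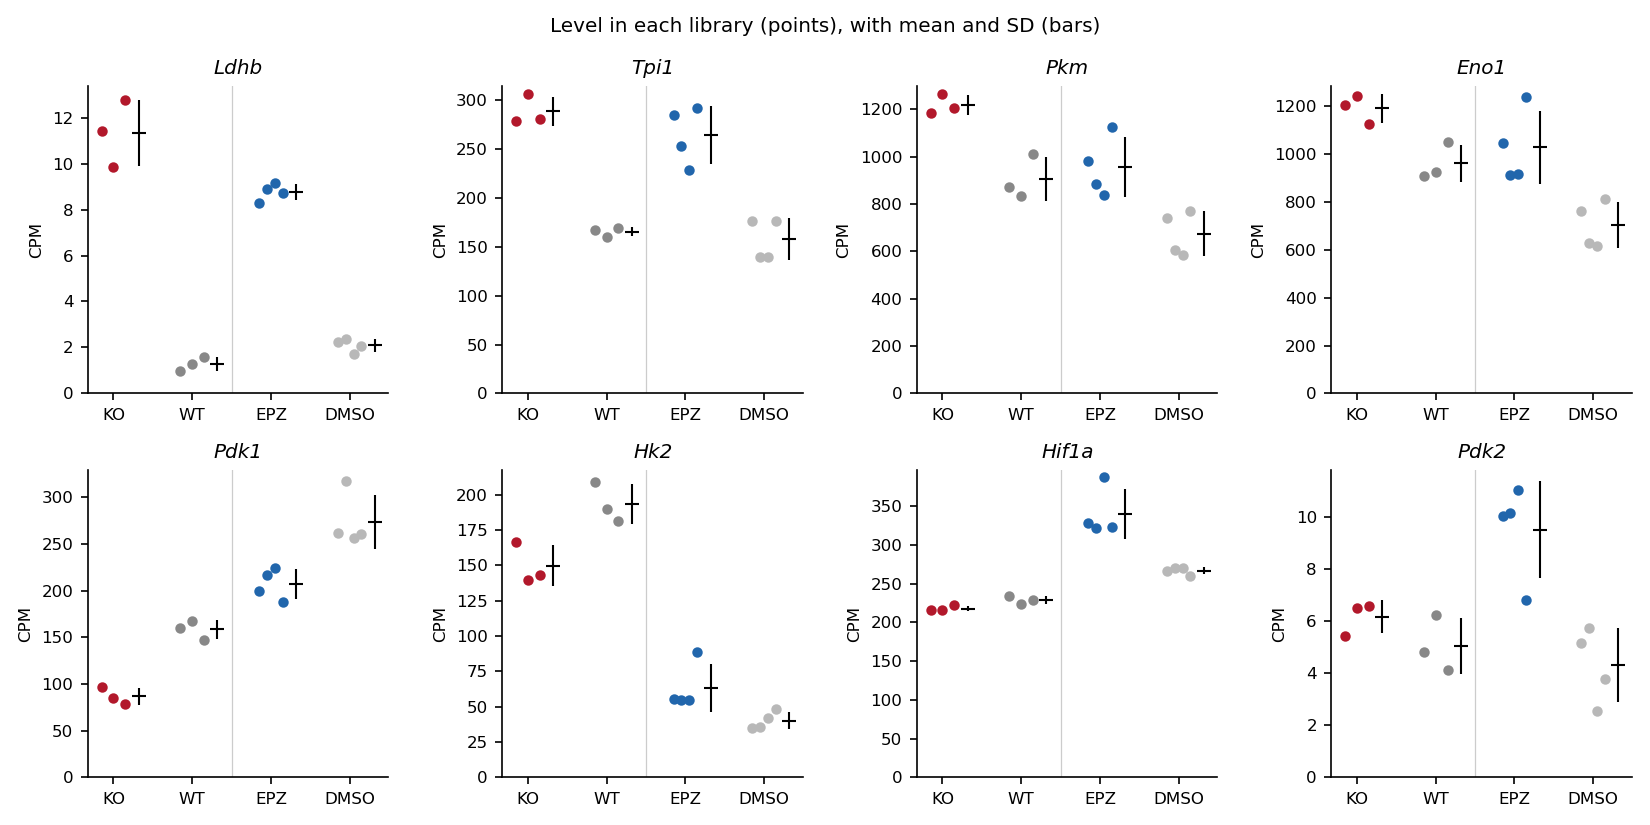
CPM of 8 genes in each library (points), with mean and SD (bars), for KO and WT (n = 3 each) and EPZ and DMSO (n = 4 each); every axis starts at 0. Ldhb, Tpi1, Pkm and Eno1 are higher in KO and EPZ than in their controls, Pdk1 is lower in both, Hk2 lies below WT in KO and above DMSO in EPZ, and Hif1a and Pdk2 stand out in EPZ.

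Among the genes of pyruvate entry, Pdk1 was the one lower in both. It read 96.5, 85.3 and 78.8 CPM in KO, against 160.1, 168 and 147 CPM in WT. The EPZ libraries read 199, 217, 224 and 188 CPM, against 262, 317, 257 and 260.4 CPM in DMSO. The groups were apart in both, and Pdk1 fell by 0.86 ± 0.08 on the log2 scale in KO (edgeR adjusted p = 3.44e-06) and by 0.40 ± 0.08 in EPZ (edgeR adjusted p = 0.00635). Pdk2, a kinase of the same enzyme, read 10.0, 10.2, 11.0 and 6.82 CPM in EPZ, against 5.17, 5.73, 2.57 and 3.78 CPM in DMSO. All EPZ values were higher, with a log2 fold change of 1.11 ± 0.21 (edgeR adjusted p = 0.00458). In KO Pdk2 read 5.45, 6.51 and 6.60 CPM, against 4.83, 6.23 and 4.12 CPM in WT, and the groups overlapped (log2 fold change 0.40, edgeR adjusted p = 0.112). Pdk3 was called in neither. In KO, Mpc2 (log2 fold change -0.41) and the E1 alpha subunit Pdha1 (-0.20; lost without KO 1, adjusted p = 0.0581) were lower and the E1 beta subunit Pdhb (0.25) was higher, while in EPZ none of these 3 was called (-0.12, -0.06 and 0.06). Mpc1 was called in EPZ only with the animal as a block (adjusted p = 0.11 without it and 0.0447 with it).

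Hif1a, the oxygen-regulated subunit of HIF-1, read 216, 216 and 222 CPM in KO, against 234, 224 and 229 CPM in WT, just below them, a log2 fold change of -0.06 (edgeR adjusted p = 0.38). In EPZ it read 328, 321, 388 and 323 CPM, against 267, 269.8, 271 and 260.4 CPM in DMSO. All EPZ libraries were above all DMSO libraries, with a log2 fold change of 0.35 ± 0.07 (edgeR adjusted p = 0.00497). HIF-1 alpha is controlled mainly through the stability of its protein, which these counts do not measure.

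The balance of isoforms was read as the log2 ratio of the counts of 2 genes in each library, which does not depend on depth or normalization. Ldhb took 2.15% ± 0.315 of the length-scaled lactate dehydrogenase level in KO and 0.275% ± 0.0673 in WT (SD, n = 3 each). In EPZ it took 1.77% ± 0.197 and in DMSO 0.555% ± 0.0613 (SD, n = 4 each). Even at its highest, Ldhb thus stayed a small share beside Ldha. The Ldha to Ldhb log2 ratio was lower by 2.95 in KO and lower by 1.67 in EPZ. Of 13 pairs tested, 8 differed between EPZ and DMSO, each with no overlap, at an exact two-sided permutation p of 0.0286 (adjusted p = 0.0464), the smallest that 4 against 4 allow. These were Slc2a1/Slc2a3, Hk1/Hk2, Pfkl/Pfkp, Eno1/Eno3, Ldha/Ldhb, Slc16a1/Slc16a3, Pdk1/Pdk2 and Pdk1/Pdk3. Taken within animals, an exact sign-flip test of 4 pairs cannot reach 0.05, and the adjusted p of each was 0.181. Between KO and WT, 3 against 3 allow no exact p below 0.1 (adjusted p = 0.13), and 10 of 13 pairs did not overlap. The share among other pairs of genes was not computed. Of all single genes tested, 51.2% did not overlap between KO and WT and 24.2% between EPZ and DMSO. The pairs Pdha1/Pdhb and Mpc1/Mpc2 are partner subunits and not isoforms.

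Slc2a1 took 66.3% of the length-scaled level of the 2 glucose transporters in KO and 67.7% in WT, but 66.2% in EPZ and 60.8% in DMSO. Eno3 took 2.62% of the enolase level in KO and 5.41% in WT, and 3.59% in EPZ and 6.52% in DMSO. Pfkl took 18.7% of phosphofructokinase in KO and 11.8% in WT, and 22.5% in EPZ and 19.3% in DMSO. Slc16a3 took 11.2% of the 2 lactate transporters in KO and 8.45% in WT, and 20.6% in EPZ and 14.7% in DMSO. Pdk1 took 42.6% of the 3 kinases in KO and 56.1% in WT, and 61.4% in EPZ and 71.3% in DMSO. Pdk3 took 49.9% in KO on this scale, with exon lengths of 7779 bases for Pdk1 and 2561 for Pdk3. In unscaled CPM, Pdk1 stood above Pdk3 in every library. Hk2 took 54.5% of the 2 hexokinases in KO and 55.2% in WT, Hk1 and Hk2 both being lower in KO. In EPZ it took 30.9% and in DMSO 22.6%. The lead of Hk2 in KO and WT depended on the length scaling, with exon lengths of 8532 bases for Hk1 and 5969 for Hk2. In unscaled CPM, Hk1 stood above Hk2 in every KO and WT library. In the pair KO 1 and WT 1 alone, all 13 ratios had the sign they had over all libraries. For the pairs without overlap between KO and WT, that sign was fixed in advance. The ratio of Ldha to Ldhb was lower by 3.38.

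**Figure D4:**
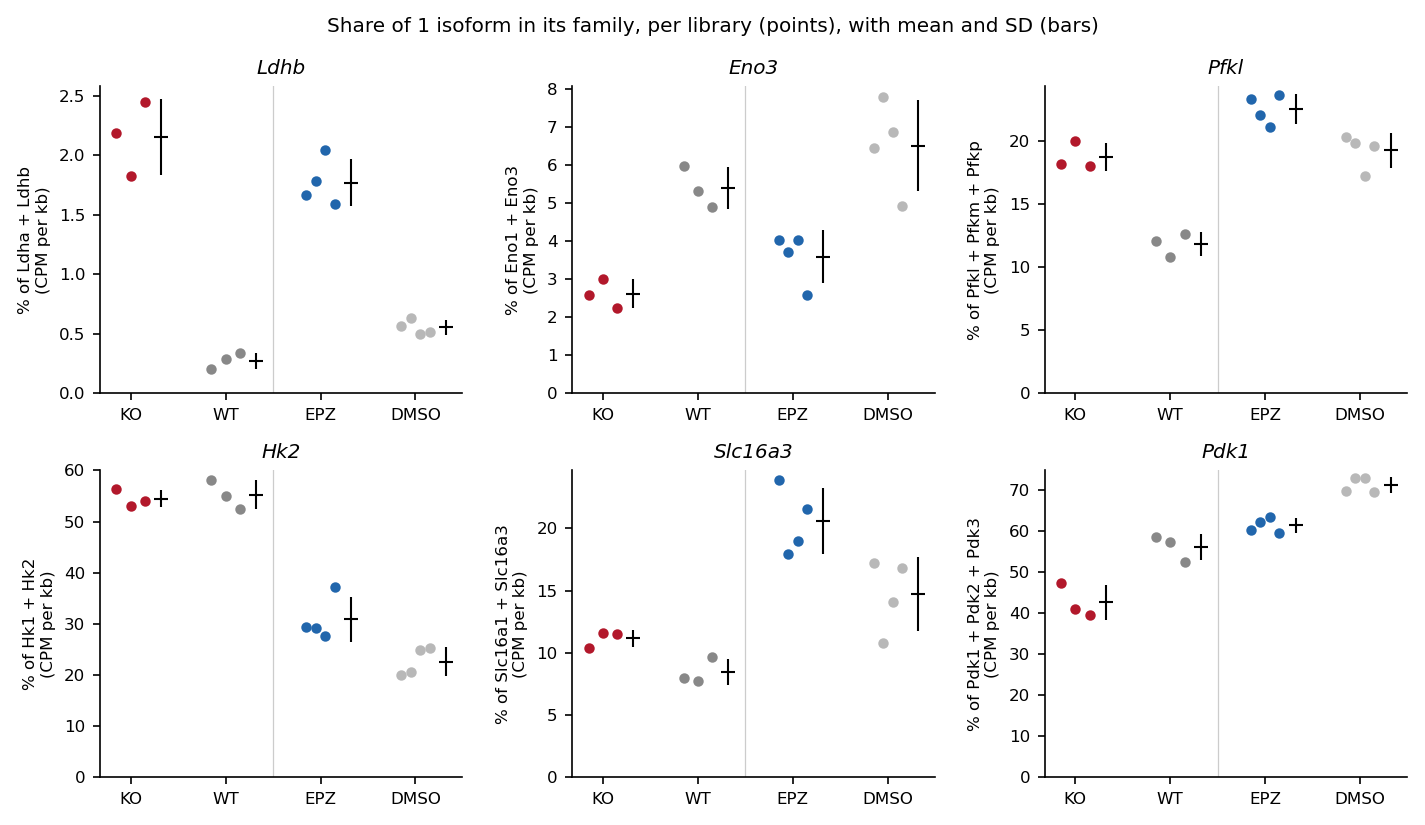
Share of 1 isoform in the length-scaled level (CPM per kb) of its family, in percent, for each library (points), with mean and SD (bars), in KO and WT (n = 3 each) and EPZ and DMSO (n = 4 each); every axis starts at 0. Ldhb, Pfkl and Slc16a3 take a larger share and Eno3 and Pdk1 a smaller one in KO and EPZ than in their controls, and Hk2 takes 54.5% in KO, 55.2% in WT, 30.9% in EPZ and 22.6% in DMSO.

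The effects of KO and EPZ were set against each other in a fit of all 14 libraries, as (KO minus WT) minus (EPZ minus DMSO). Of the 33 member rows 5 were called, 1 higher and 4 lower in KO, with 7.6% of 12639 genes called (3.29% higher, 4.31% lower). Ldhb rose by 1.00 ± 0.24 more on the log2 scale in KO than in EPZ (edgeR adjusted p = 0.0185), a call lost without WT 1 (adjusted p = 0.0527). Hk2 differed by -1.03 ± 0.22 (edgeR adjusted p = 0.00728) and Hif1a by -0.42 ± 0.09 (edgeR adjusted p = 0.00851). Hk1 differed by -0.35 ± 0.09 (edgeR adjusted p = 0.019) and Pdk1 by -0.46 ± 0.13 (edgeR adjusted p = 0.0327). Both calls were lost without several single libraries, with adjusted p up to 0.114 for Hk1 and 0.127 for Pdk1. The Pdk1 call was also lost with RLE (0.0513) or upper quartile factors (0.0502), and the Hk1 call with no filter on low counts (0.0594). Pfkfb3, not called in this fit (edgeR adjusted p = 0.0525), was called in 8 of 21 alternatives. Among them were RLE factors (0.0365), DESeq2 (0.0176) and replicate numbers and animals as blocks (0.0432). Slc2a1 was called with those blocks (0.0183) and with no filter on low counts (0.0266). Pfkp was called with no filter (0.0303) and without DMSO 3 (0.0292). The members' median was -0.23, against -0.03 for all genes. KO and EPZ came from different animals and cultures, and the genotype, tamoxifen, solvent and route of DOT1L loss cannot be told apart in this contrast.

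With KO 1 and WT 1 alone, the 18 members called in KO all kept their direction. For each of them all KO libraries lay to one side of all WT libraries, so this direction was fixed in advance. The log2 fold change was 3.55 for Ldhb and -0.73 for Pdk1. Tpi1 had 0.74 there (edgeR adjusted p = 0.0622) and Hk2 -0.33 (adjusted p = 0.599). In that setting none of the 5 members of the contrast was called by edgeR: Hk2 had -0.99 (adjusted p = 0.318), Ldhb 1.51 (0.126), Hif1a -0.47 (0.273), Hk1 -0.25 (0.555) and Pdk1 -0.33 (0.548). Here the lone KO and WT libraries were assumed to vary as the EPZ and DMSO libraries do. The members on the X chromosome are Pgk1, Pdha1 and Pdk3.

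Genes around the pathway were counted from lists. Of the HIF-1 targets outside glycolysis, 3 of 14 tested were higher and 5 lower in KO, and 1 of 15 was higher and 1 lower in EPZ. P4ha2, a collagen prolyl hydroxylase, was higher in both (log2 fold changes 1.69 in KO and 1.27 in EPZ). P4ha1 (-0.70) and the mitophagy receptor Bnip3 (-0.92) were lower in KO, and Kdm3a was lower in EPZ (-0.25). Kdm3a also stood below WT in all KO libraries, at 95.7 to 109 CPM against 131 to 139 CPM. In the oxygen-sensing list, Epas1, which encodes HIF-2 alpha, was higher in both, by 4.19 ± 0.22 in KO (edgeR adjusted p = 1.85e-08) and by 1.15 ± 0.21 in EPZ (edgeR adjusted p = 0.00331). It read 33.1, 30.1 and 40.4 CPM in KO, against 3.14, 0.916 and 1.60 CPM in WT. Its EPZ values were 4.23, 3.80, 3.29 and 3.86 CPM, against 1.25, 1.56, 1.96 and 2.32 CPM in DMSO. Both pairs were apart, and the KO change was larger by 3.02 ± 0.36 on the log2 scale (edgeR adjusted p = 8.02e-05). In that list 2 of 7 genes were higher and 1 lower in KO, namely Egln3 (-0.92), a prolyl hydroxylase that marks HIF alpha subunits for breakdown, and 1 of 8 was higher in EPZ, namely Epas1.

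Among partners of pyruvate dehydrogenase, 2 of 8 were higher and 1 lower in KO and 1 of 8 higher in EPZ. Pdp1, the phosphatase that undoes the action of the Pdk kinases, was higher in both (log2 fold changes 0.83 in KO and 0.56 in EPZ). The E2 subunit Dlat was higher in KO (0.66), and its effect there exceeded that in EPZ (difference 0.48, edgeR adjusted p = 0.00694). Of the genes that branch from glycolysis, 6 of 16 were higher and 6 lower in KO, and 3 were higher and 1 lower in EPZ. Gpd2, the mitochondrial glycerol 3-phosphate dehydrogenase, was higher in both (2.15-fold in KO and 1.62-fold in EPZ), as was the glycogen phosphorylase Pygl (log2 fold changes 0.73 in KO and 0.92 in EPZ). Gpd1l (-0.67) and the serine synthesis enzyme Psph (-0.56) were lower in KO, and Psat1, of the same synthesis, was higher in EPZ (0.41). Psat1 also stood above WT in all KO libraries, at 173, 189.8 and 195 CPM against 144, 139 and 160 CPM. In the pentose phosphate pathway 2 of 8 were higher and 1 lower in KO, and Rpia, ribose 5-phosphate isomerase, was higher in both (0.56 in KO and 0.35 in EPZ).

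Of the other isozymes and carriers, 11 of 28 were expressed enough to be tested in KO and 10 in EPZ. In KO 3 were higher and 2 lower, and in EPZ 2 were higher and 1 lower. Bsg, the chaperone that brings MCT1 and MCT4 to the membrane, was higher in both (0.34 in KO and 0.26 in EPZ), as was Slc16a6 (0.36 in KO and 0.42 in EPZ), while Slc2a9 was lower in KO (-0.48) and Slc2a6 in EPZ (-0.51). Among regulators of glucose use, 2 of 16 were higher and 2 lower in KO, and 1 of 15 was higher and 1 lower in EPZ. Txnip, which lowers glucose uptake by removing GLUT1 from the surface, was lower in both (-0.95 in KO and -0.79 in EPZ), and the kinase Akt1 was higher in both (0.34 in KO and 0.23 in EPZ). Shares called in these lists are read against the same backgrounds of 40.4% in KO and 20.2% in EPZ.

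Several of these genes, Gapdh, Ldha, Pgk1, Aldoa, Eno1 and Tpi1 among them, have processed pseudogenes or close copies in the mouse genome, and how reads that match both were counted is not stated. The near-identical copy Eno1b held at most 0.328 CPM. The second row of Aldoa held 0.121 to 1.30 CPM. The libraries were made with a stranded kit, but the strand setting of the counting is not stated, so reads of overlapping antisense genes may be included.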

How the data were processed

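The authors deposited raw counts per Ensembl gene for 14 libraries, with no normalization. Per the submitters' processing notes TopHat2 2.1, Bowtie 1.1, TopHat and HTSeq were used with mm10; neither strand setting nor annotation release is given in the sources used here. A line without a gene name held 0 counts. Of the 55486 genes, 54906 (99.0%) have the coordinates of GENCODE mouse release M21, from which exon lengths came.

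The tests used edgeR 4.0.16 (R 4.3.3; TMM, filterByExpr with a minimum count of 10 and a total of 15, quasi-likelihood test), with Benjamini-Hochberg adjusted p below 0.05 over all genes; SE was derived from the fold change and F. KO and WT, and EPZ and DMSO, were fitted separately, and the contrast of effects on all 14. Alternatives included DESeq2 1.42.0, other size factors and filters, blocks and leaving out libraries. CPM levels are TMM scaled over all 14. Isoform ratios had 0.5 counts added and exact two-sided permutation tests over 13 pairs (scipy 1.17.1). The script was tested on simulated data. Intervals and counts cover these libraries only.

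The members and lists were chosen with earlier results of these data known. Per-library values are printed for members called in both comparisons or in the contrast, and for the member with the largest called change at each step; up to 3 called genes per list with the smallest adjusted p are named, and for EPZ or KO the value in the other comparison is added where it was called. Slc2a1 and, outside the members, Epas1 were added after their values were seen.

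The library names give animals WT1 to WT4 in both EPZ and DMSO, so these are paired. Deviations from group means correlated between -0.0824 and 0.587 within the 4 pairs, 2 of them over 0.1. No 2 libraries of a group were copies (chi-square per degree of freedom 2.05 to 18.1 over genes with at least 20 counts). The KO libraries were the most alike, with 2.05 for KO 1 against KO 2, and 4.19 and 5.54 for KO 3 against these. Replicates are labelled biological.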

Additional observations from a re-analysis of the deposited data

Results flagged for a closer look

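In 6 of the 64 sets of EPZ or DMSO values checked, 1 library stood far from the other 3; chance gives about 1 such set in 20. The gap to the nearest library is given as a share of the whole range. Hk2 read 89.0 CPM in EPZ 4, against 54.6 to 55.4 in the other EPZ libraries (gap 0.976). Gpi1 read 1012 CPM in EPZ 3, against 925 to 932 (0.911), and Hif1a read 388 CPM there, against 321 to 328 (0.900). In DMSO, Slc2a1 read 103 CPM in DMSO 4, against 80.0 to 82.0 (0.913). Pdk1 read 317 CPM in DMSO 2, against 257 to 262 (0.918), and Pdhb read 70.8 CPM in DMSO 3, against 67.5 to 67.9 (0.889). EPZ and DMSO libraries are paired by animal. For Hk2, Slc2a1 and Hif1a, the paired library of the same animal was also the highest of its group. For Gpi1, Pdk1 and Pdhb it was not.

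The effect of KO differed from that of EPZ for 5 members by the contrast of effects on the log2 scale (edgeR adjusted p below 0.05): Hk2 by -1.03, Hk1 by -0.35, Pdk1 by -0.46, Hif1a by -0.42 and Ldhb by 1.00. Hk2 was lower in 3 of 3 KO libraries than in any WT library and higher in 4 of 4 EPZ libraries than in any DMSO library.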

How the results depend on the processing

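All 18 members called in KO, all 15 called in EPZ and all 5 called in the contrast kept their direction under every alternative run. The groups did not overlap for the 18 in KO and, apart from Eno3, the 15 in EPZ. Leaving out libraries could hardly reverse those. Of the 15 in EPZ, 9 kept their call throughout, and of the 18 in KO, 2 did (Ldhb and Pdk1), or 10 when KO 1 and WT 1 alone is set aside. Of the 5 in the contrast, 0 did, since none was called with KO 1 and WT 1 alone. The KO counts, 10 higher and 8 lower, became 6 and 6 in a fit of all 14 libraries, and 1 and 1 with KO 1 and WT 1 alone. In EPZ, the 13 higher became 8 to 14 and the 2 lower 1 to 2 when single libraries were left out, and 1 was lower with upper quartile factors or at least 10 CPM. In the contrast, 2 were higher with RLE or upper quartile factors, DESeq2 or the replicate block and 0 to 2 without single libraries; the 4 lower became 2 to 5. With KO 1 and WT 1 alone, an alternative chosen after seeing the data, none was called in either direction (0 and 0). The 8 isoform pairs of EPZ became 0 with the replicate block and 0 to 0 without single libraries, where the exact tests cannot pass. With the replicate block, genes called in EPZ went to 3163 and members to 16 higher and 2 lower. KO and WT replicates share only a number (correlations -0.176 to 0.0452, 0 of 3 closest to their own number); that block lost Ldha (adjusted p = 0.125).

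Members near 0 and not called changed sign. In KO, Slc2a3 was 0.0263 with upper quartile factors, 0.00131 at 10 CPM and 0.11 with KO 1 and WT 1 alone, and -0.0745 to 0.0336 without single libraries; Pgk1 was -0.0864 with KO 1 and WT 1 alone and -0.00243 to 0.0697 without single libraries. In EPZ, Bpgm was 0.00979 with upper quartile factors and 0.00368 at 10 CPM, and -0.0406 to 0.0226 without single libraries; Hk1 was -0.0153 to 0.0546. In the contrast, Pgam1 was 0.00468 (RLE), 0.00914 (upper quartile), 0.00803 (10 CPM) and 0.00429 (DESeq2), and Mpc1 0.00553 (RLE), 0.00955 (upper quartile), 0.00822 (10 CPM) and 0.00438 (DESeq2). With KO 1 and WT 1 alone, Tpi1 was -0.000264 and Pfkfb4 0.0573. Without single libraries the contrast ran from -0.0864 to 0.0244 for Pgam1, -0.086 to 0.074 for Mpc1, -0.0265 to 0.074 for Slc2a3, -0.187 to 0.0856 for Pfkfb4, -0.109 to 0.0595 for Aldoa and -0.135 to 0.0267 for Pkm. Ratios that changed sign without single libraries were Hk1/Hk2 (-0.0400 to 0.127) and Pfkm/Pfkp (-0.00243 to 0.186) in KO, and Pfkm/Pfkp (-0.107 to 0.037) and Pfkfb3/Pfkfb4 (-0.0163 to 0.0781) in EPZ. The cause was not tested. Low counts limit Ldhb, Pfkfb4 and Pdk2, whose counts in WT 2 were 7, 16 and 34.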
